A study of Mus musculus with 8 samples.

Results

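The cytosolic ribosomal protein genes were followed in whole Peyer's patches of 8 C3H/HeJ mice. These patches are clusters of lymphoid follicles in the wall of the small intestine. Members were the probe sets annotated to a single gene whose symbol is Rpl or Rps with a number and at most a trailing letter, together with Rplp0, Rplp1, Rplp2 and Rpsa. Symbols of the Rps6k kinases and of pseudogenes were left out. The rule found 100 of 45101 probe sets, which name 46 of the 18194 genes that a probe set names alone, 24 of the large subunit (44 probe sets) and 22 of the small subunit (56 probe sets).

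The mice were 6 weeks old at the start and were gavaged for 28 days. The OVA groups, 2 females (replicates 2 and 12) and 4 males (replicates 1, 5, 8 and 13), received ovalbumin, the main protein of egg white and a common test allergen, at 40 mg/kg each day. The controls, 1 female (replicate 7) and 1 male (replicate 8), received saline. C3H/HeJ mice, OVA and control alike, have a mutated Tlr4, through which cells sense bacterial lipopolysaccharide. Each array carried the RNA of 1 mouse, per the labels, so each control group has no replicate of its own.

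A cytosolic ribosome consists of a small subunit, which reads the mRNA, and a large subunit, which joins amino acids. Each ribosomal protein is needed in a fixed number of copies, and the genes of both subunits are usually expressed together. Many of their mRNAs begin at a cytosine followed by a run of pyrimidines, the terminal oligopyrimidine tract, through which the mTOR kinase and the RNA-binding protein Larp1 set their translation. In a Peyer's patch, dividing B cells of the germinal centres are known for high ribosome production.

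Promoters of 40 of the 46 genes were in the RefSeq table (GRCm38.p6), in 48 windows of 250 bases before and 50 bases from the start site. A C at the start site followed by at least 4 C or T was found in 8 of the 40 genes (20%), against 3.01% of 27025 genes in the table. These 8 starts are shown because they carry the sequence feature the family is known for. Each line gives 20 bases before and 20 bases from the start site, 5′ to 3′ on the gene's strand, with the pyrimidine run in capitals.
Rpl14, chr9:120571497-120571536, plus strand: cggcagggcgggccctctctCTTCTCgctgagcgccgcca
Rpl35, chr2:39005112-39005151, minus strand: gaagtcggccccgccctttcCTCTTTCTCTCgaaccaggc
Rpl38, chr11:114668560-114668599, plus strand: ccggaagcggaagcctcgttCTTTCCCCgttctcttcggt
Rplp2, chr7:141447631-141447670, plus strand: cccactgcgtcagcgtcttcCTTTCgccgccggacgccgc
Rps6, chr4:86857348-86857387, minus strand: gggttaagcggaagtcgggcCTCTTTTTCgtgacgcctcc
Rps10, chr17:27635225-27635264, minus strand: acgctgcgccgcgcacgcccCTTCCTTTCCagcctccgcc
Rps18, chr17:33955646-33955685, minus strand: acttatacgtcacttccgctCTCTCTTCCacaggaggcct
Rps27, chr3:90213629-90213668, minus strand: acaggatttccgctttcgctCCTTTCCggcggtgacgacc

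The runs span 5 (Rplp2) to 11 bases (Rpl35). Of the 8 genes, 4 belong to the large and 4 to the small subunit. No match says only that these letters do not stand at the annotated start, and 33 of the 48 start sites are the outermost start of the gene in the RefSeq gene table. The letters CCGGAAG, a core bound by ETS family factors, stood on either strand in the windows of 20 of 40 genes (50%), against 9.93% of all genes in the table. AAGATGG, a YY1 core, stood on either strand in 7 (17.5%, against 7.28%), and GGGCGG, an Sp1 core, on either strand in 22 (55%, against 38.2%). TATAAA within 50 bases before the start was in none of the 40, against 3.15% of all genes. Those shortly before the start of Rpl37, the gene with the highest OVA difference described further down, and of Rpl38 are shown here with 60 bases before and 20 bases from the start and the match in capitals. In Rpl38 it lies upstream of the pyrimidine start shown above.
Rpl37, chr15:5116553-5116632, plus strand: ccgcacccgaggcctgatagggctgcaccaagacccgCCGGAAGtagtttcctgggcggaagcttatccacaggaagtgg
Rpl38, chr11:114668520-114668599, plus strand: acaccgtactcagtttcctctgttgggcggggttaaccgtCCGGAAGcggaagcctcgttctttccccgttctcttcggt

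Intensities were as deposited by the authors and ran from 1.86 to 14749 over all probe sets. Fits and levels used log2(intensity + 4.88), and 22518 probe sets above the median level were tested with limma. As a check of the tissue, 9 of 9 B cell markers on the array passed the filter. The extraction text of the labels speaks of brain tissue of a patient, and only 3 of 9 neuron and glia markers on the array passed, with Snap25, Gfap, Rbfox3, Syn1, Gad1 and Slc17a7 below the filter. With 8 arrays, the precision of each value is limited by their number.

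Ribosomal protein probe sets were among the brightest of the array. Of the 100 members, 56 lay in the brightest 1%, which holds 451 probe sets in all, and 64 members from 34 genes had a mean intensity over 1000. In all, 86 probe sets from 43 genes (22 large, 21 small) passed the filter. The brightest were Rps29 at a mean of 7461, Rplp2 of the stalk at 6585, Rpl41, the smallest ribosomal protein, at 6345, Rpl37a at 5931 and Rps7 at 5712. An intensity depends on how well its probes bind, so this order is one of signals and not of mRNA amounts.

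A second set of genes was read far lower. Between Rps27l (mean intensity 2238) and the next gene, Rps25 (325), no gene was found. The 9 genes from Rps25 downwards were Rps25, Rpl27a, Rpl37, Rps4l, Rps6, Rpl14, Rps27, Rpl39 and Rpl12, the last at 32.5. The genes Rpl39l (4.76), Rpl3l (4.11) and Rps16 (3.19) did not pass the filter. The plot of all 43 genes by array shows the gap. A further 110 probe sets name a ribosomal protein gene together with other genes, 9 of them for Rps6 and 1 for Rpl39, and 28 ribosomal protein symbols occur only in those, among them Rpl3, Rpl5, Rplp1 and Rps13. Of the members, 43% carry the suffix x_at or s_at, which marks probes that can bind transcripts of other genes, against 10.1% of all probe sets, so the signal of these can include transcripts of near-identical copies.

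**Figure D1:**
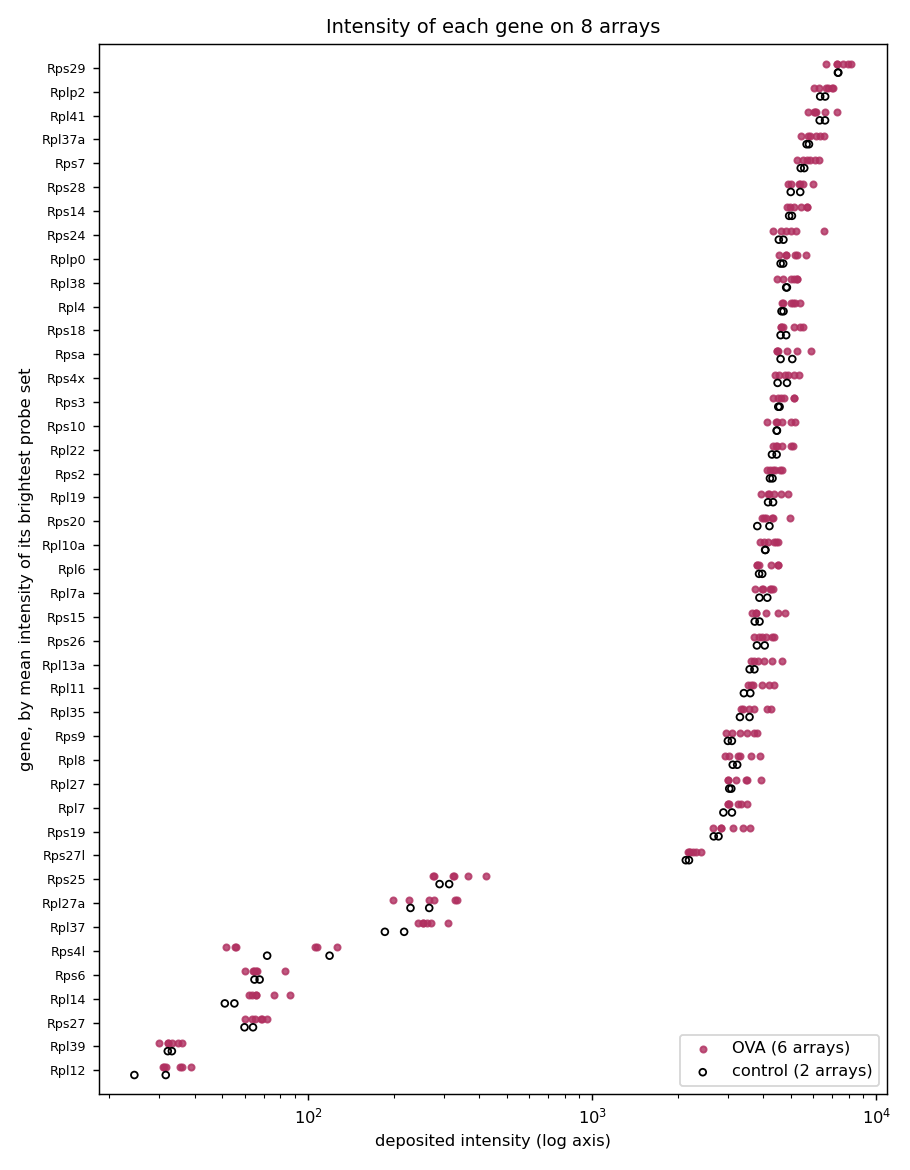
Deposited intensity (log axis) of the 43 ribosomal protein genes that passed the filter, by the gene's brightest probe set, with filled points for 6 OVA arrays and open points for 2 control arrays. For 34 genes the mean lies over 1000, with Rps27l lowest among them, and the other 9 lie at or below the mean of 325 of Rps25.

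The question put to the comparison of treatments was whether ovalbumin gavage moved these genes. Most were slightly higher in OVA patches, by amounts that no test called. Of the 43 genes, 41 had a higher fitted level in OVA than in control, with a median difference of 0.07 log2, where the median over all tested probe sets was 0.02. No member passed the limma test at an adjusted p of 0.05, and 0% of all tested probe sets did. The smallest adjusted p of a member was 0.396, and 2524 of 22518 probe sets had an unadjusted p under 0.05. In RNA from whole patches, fewer cells of a type and less RNA per cell cannot be told apart.

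Counted by probe set, 79 of 86 members (91.9%) were higher in OVA, against 54.5% of all tested probe sets. Of the members, 6 (6.98%) had an unadjusted limma p under 0.05 and a higher level in OVA, against 6.88% of all tested probe sets. All 6 OVA arrays lay above both controls in 5 members (5.81%), against 8.36% of all tested probe sets, and below both in 0, against 5.01%. The shares of separated members are near or below the background, while the share with a positive difference is above it. Of all 923 probe sets with a mean intensity over 1000, 64 were members and 79 named a ribosomal protein gene together with other genes. The remaining 780 did not share the direction: 344 of them were higher in OVA, with a median of -0.02 log2. The median difference was 0.11 log2 over 38 member probe sets ending in x_at and 0.07 over 25 ending in a_at. It was 0.09 over 20 ending in at with no letter before it and 0.09 over 3 ending in s_at.

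The difference was largest on few arrays. The mean level of the 43 genes was 10.85 log2 in female OVA 2, 11.08 in female OVA 12, 11.01 in male OVA 1, 10.94 in male OVA 5, 11.08 in male OVA 8 and 10.90 in male OVA 13, against 10.88 in female control 7 and 10.90 in male control 8. The OVA mean was 10.98 ± 0.10 (SD, n = 6) and the control mean 10.89 ± 0.01 (SD, n = 2). Female OVA 2 lay below both controls and male OVA 13 between them, so the groups overlapped.

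Gene by gene the same arrays stood out. Of the 43 genes, 21 were highest in female OVA 12, 20 in male OVA 8 and 2 in male OVA 1. In female OVA 12, 40 genes lay above both controls, in male OVA 8 39, in male OVA 1 38, in male OVA 5 22, in male OVA 13 9 and in female OVA 2 only 4. In female OVA 2, 23 genes lay below both controls. The 100 member probe sets made up 5.31% of the summed intensity of female OVA 12 and 5.34% of that of male OVA 8, while the other OVA arrays ran from 4.57% to 4.95% and both controls were at 4.71%.

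The arrays with the most ribosomal protein signal also had the most B cell and T cell signal. B cell markers, 9 on the array, summed to 6023 in female OVA 12 and 6193 in male OVA 8, to between 2951 and 3929 in the other OVA arrays, and to 3190 and 2953 in the controls. Relative to their mean over the 8 arrays, B cell markers stood at 0.60 log2 in female OVA 12 and 0.64 in male OVA 8, germinal centre markers at 0.44 and 1.02, T cell markers at 0.32 and 0.33, and proliferation markers at 0.36 and 0.49. In all 4 lists these were the highest arrays, and no list had a defining marker below the filter. This was not particular to these lists. The 3 neuron and glia markers past the filter were also highest there, at 0.15 in female OVA 12 and 0.09 in male OVA 8. The next array, male OVA 5, was at 0.03. Enterocyte markers summed to between 28635 and 39972 in OVA arrays, with the lowest sum in female OVA 12, and to 40288 and 35647 in controls. Goblet cell markers summed to between 10142 and 17104 in OVA arrays, with the lowest sum in male OVA 8 (14235 in female OVA 12), and to 15836 and 18910 in controls. Smooth muscle markers summed to between 2168 and 4063 in OVA arrays, with the highest sum in female OVA 12 (2719 in male OVA 8), and to 4125 and 3648 in controls. All 9 enterocyte, 6 goblet cell and 6 smooth muscle genes had a lower fitted level in OVA, and none was called. The direction differed between the fits within each sex. Each sex has 1 control array, so sex and the single control cannot be told apart here. Within males 6 of 9 enterocyte genes were higher in OVA (median 0.11 log2), and within females 0 of 9 (median -0.41). Within females 2 of 6 goblet cell and 2 of 6 smooth muscle genes were higher, and within males 0 of 6 in both lists. Plasma cell markers did not follow the B cell markers: they summed to 14718 in female OVA 12 and 17382 in male OVA 8, against 16580 and 16889 in controls. The part of cell composition in the ribosomal protein difference was not tested.

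Without female OVA 12 and male OVA 8, an alternative added after the data were seen, 20 of 43 genes were higher in OVA and the median difference was -0.00057 log2. Those arrays had the highest mean levels of these same genes, so a lower difference without them was fixed in advance. Leaving out female OVA 12 alone gave 0.03 with 30 of 43 genes higher. Leaving out male OVA 8 alone gave 0.05 with 41 of 43 higher, and leaving out female OVA 2 gave 0.12 with 42 of 43. Within females the median was 0.07 (37 of 43 higher), and within males 0.07 (35 of 43 higher). The median over all tested probe sets was 0.05 within females and 0.004 within males.

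**Figure D2:**
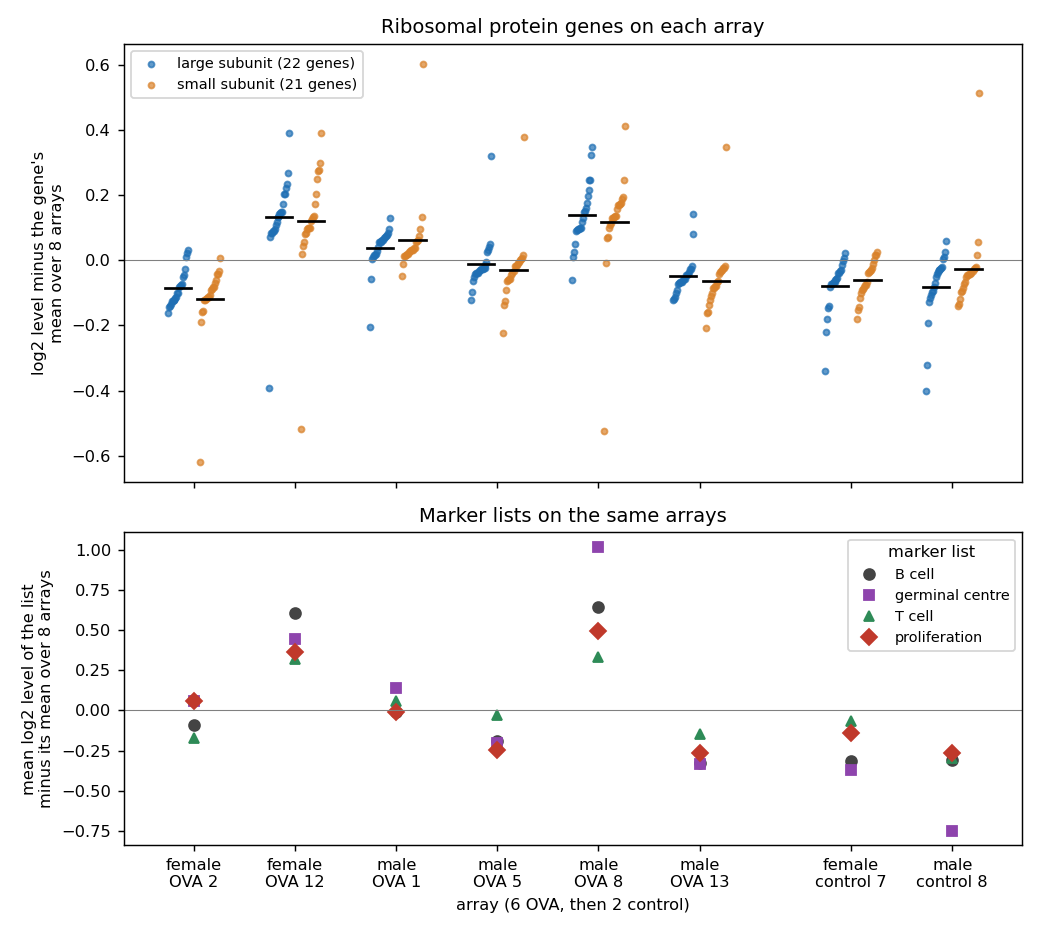
Upper panel: log2 level of each ribosomal protein gene minus its own mean over 8 arrays, with large subunit genes in blue, small subunit genes in orange and black bars for the mean of each subunit. Lower panel: mean log2 level of 4 marker lists minus its mean over the arrays. Female OVA 12 and male OVA 8 are highest in both panels, and 41 of 43 genes are highest in 1 of these arrays.

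Across arrays most of the genes moved together. The range of a gene over the 8 arrays had a median of 0.31 log2, against 0.54 for all tested probe sets. It was 0.15 once the mean of the 43 genes on each array was subtracted, with no like value for other probe sets. The SD over the arrays rose on this subtraction for Rpl27a (0.257 to 0.282), Rps4l (0.513 to 0.543) and, slightly, Rpl39 (0.0725 to 0.0730). The 34 genes with a mean intensity over 1000 had a median range of 0.28, against 0.46 for the 780 probe sets of that brightness that name no ribosomal protein gene. Rps14, a small subunit protein near the mRNA exit, lay closest to the family's mean: its intensities were 4834, 5679, 5412, 5149, 5689 and 4981 in OVA (female 2 and 12, male 1, 5, 8 and 13), against 4933 and 5046 in controls. Its order over the arrays was that of the family's mean. The narrowest ranges belonged to Rps27l, a paralog of Rps27 (0.18), Rps2 at the mRNA entry (0.18) and Rpl10a (0.21). The widest belonged to Rps4l (1.22), Rpl27a (0.74), Rpl37 (0.72), Rpl14 (0.71) and Rps25 (0.62), all read at intensities well under 1000.

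The differences between OVA and control that were furthest from 0 belonged to dim probe sets. Rpl37, a large subunit protein encoded on chromosome 15 (chr15:5116613-5119140, GRCm38.p6), had intensities of 253, 263, 271, 253, 311 and 244 in OVA, in the same order of arrays, against 218 and 186 in controls. Every OVA array lay above both controls. The limma difference was 0.39 ± 0.12 log2 (SE, adjusted p = 0.396).

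Rpl14, a large subunit protein whose start is among the pyrimidine starts printed above, is encoded on chromosome 9. Its intensities were 65.4, 86.5, 65.4, 63.6, 76.1 and 62.2 in OVA, against 55.1 and 51.0 in controls, again without overlap. The limma difference was 0.38 ± 0.13 log2 (SE, adjusted p = 0.409). Rpl37 and Rpl14 were the 2 of 43 genes (4.65%) whose groups did not overlap. Over all 11988 tested genes, by the same choice of probe set, 7.99% had every OVA array above both controls and 4.65% every OVA array below, so this count is no larger than the background. Without female OVA 12 and male OVA 8 their differences were 0.35 log2 for Rpl37 and 0.27 log2 for Rpl14.

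**Figure D3:**
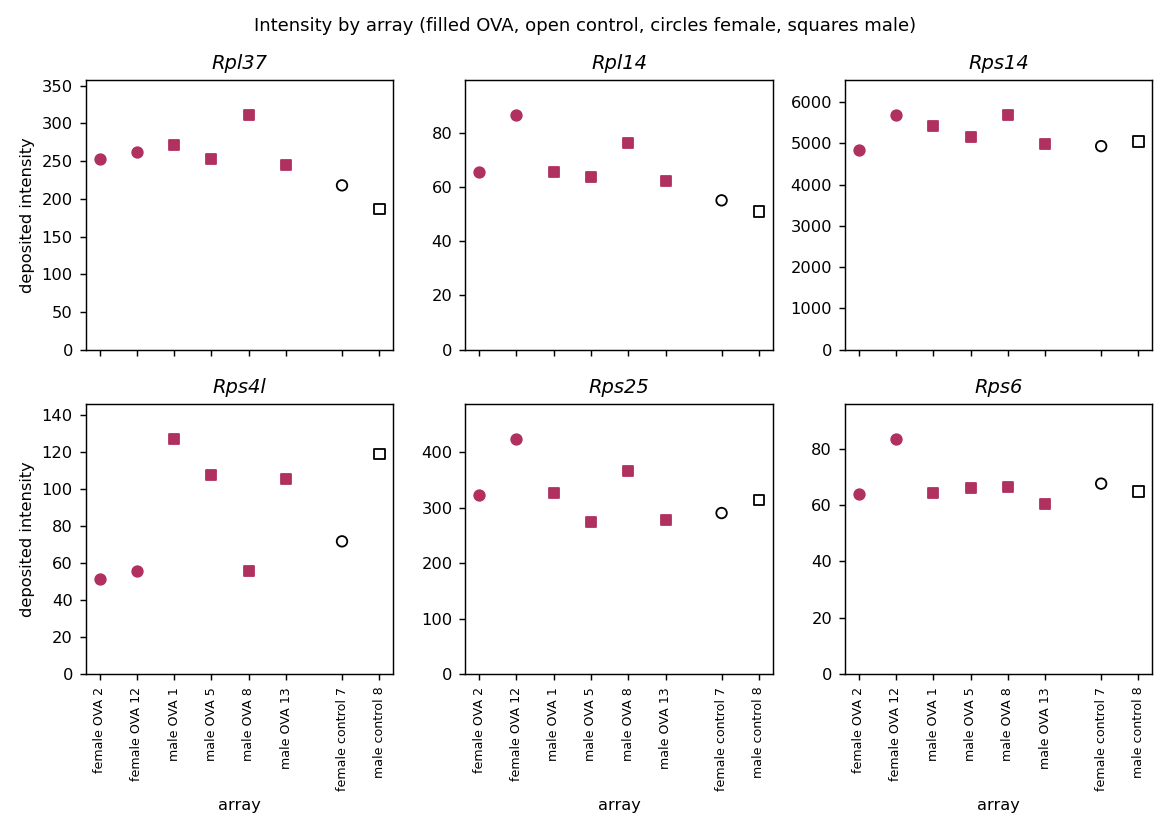
Deposited intensity of 6 ribosomal protein genes on each array, with filled symbols for OVA, open symbols for control, circles for females and squares for males. Rpl37 and Rpl14 show every OVA array above both controls, Rps14 follows the family's mean, Rps4l is low in every female and in male OVA 8, and Rps6 is high in female OVA 12.

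By role most of the differences were small and positive, and no gene named here passed the limma test. The paralogs were the exception, with Rps27l at 0.06 log2 and Rps4l, described further down, at -0.35. In the stalk, which recruits translation factors, Rplp0 had intensities from 4556 to 5647 (median 4981) in OVA, against 4701 and 4604 in controls, a difference of 0.10 ± 0.11 log2 (SE). Rpl12, at the base of the stalk, was at 0.24 ± 0.13 and Rplp2 at 0.03 ± 0.10. The value of Rpl12 was 0.43 within females and 0.07 within males, and 0.16 without female OVA 12. Rpl11, which binds Mdm2 when ribosome assembly is disturbed, had intensities from 3530 to 4358 in OVA, against 3419 and 3601 in controls, a difference of 0.14 ± 0.12. Female OVA 2 lay between the controls there and the other 5 OVA arrays above both.

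Of the genes around the peptide exit tunnel, 5 of 5 tested were higher in OVA, from 0.02 (Rpl39) to 0.11 (Rpl35). Rpl22, which mouse T cells need for their development, was at 0.09 ± 0.10 with intensities from 4333 to 5077 in OVA, against 4458 and 4292 in controls. Near the peptidyl transferase centre, Rpl8 was at 0.06. Rpl10a, of the large subunit, was at 0.05. At the mRNA entry, Rps2 was at 0.04 and Rps3 at 0.06, and at the mRNA exit 4 of 4 tested genes lay between 0.02 (Rpsa) and 0.08 (Rps14).

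Genes that are mutated in human Diamond-Blackfan anaemia, a failure of red cell production, were higher in OVA in 10 of 10 tested cases, with a median of 0.07 log2. Rps19, the gene mutated most often in that disease, had intensities of 2833, 3598, 3135, 2843, 3404 and 2665 in OVA, against 2678 and 2784 in controls. Male OVA 13 lay below both controls and the other 5 OVA arrays above both. Its limma difference was 0.17 ± 0.13 log2 (SE, adjusted p = 0.616). Rps9 at 0.15 and Rps25, which some viral RNAs need for translation, at 0.15 ± 0.16 were the next small subunit genes. Rpl27 (0.14) and Rpl13a (0.13) were the next of the large subunit.

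At the other end, Rpl41 had intensities from 5726 to 7286 in OVA, against 6318 and 6600 in controls, a difference of -0.03 ± 0.11 log2. Rps29, Rpsa, Rpl7a, Rpl39, Rplp2 and Rpl38 lay between 0.02 and 0.03 log2. Their sign turns under another scaling or without the arrays named above. Rps6, whose protein is phosphorylated by S6 kinases after mTOR signalling, had intensities of 63.8, 83.2, 64.3, 65.9, 66.3 and 60.2 in OVA, against 67.6 and 64.8 in controls. Only female OVA 12 stood above the others, and the difference was 0.04 ± 0.12 log2.

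**Figure D4:**
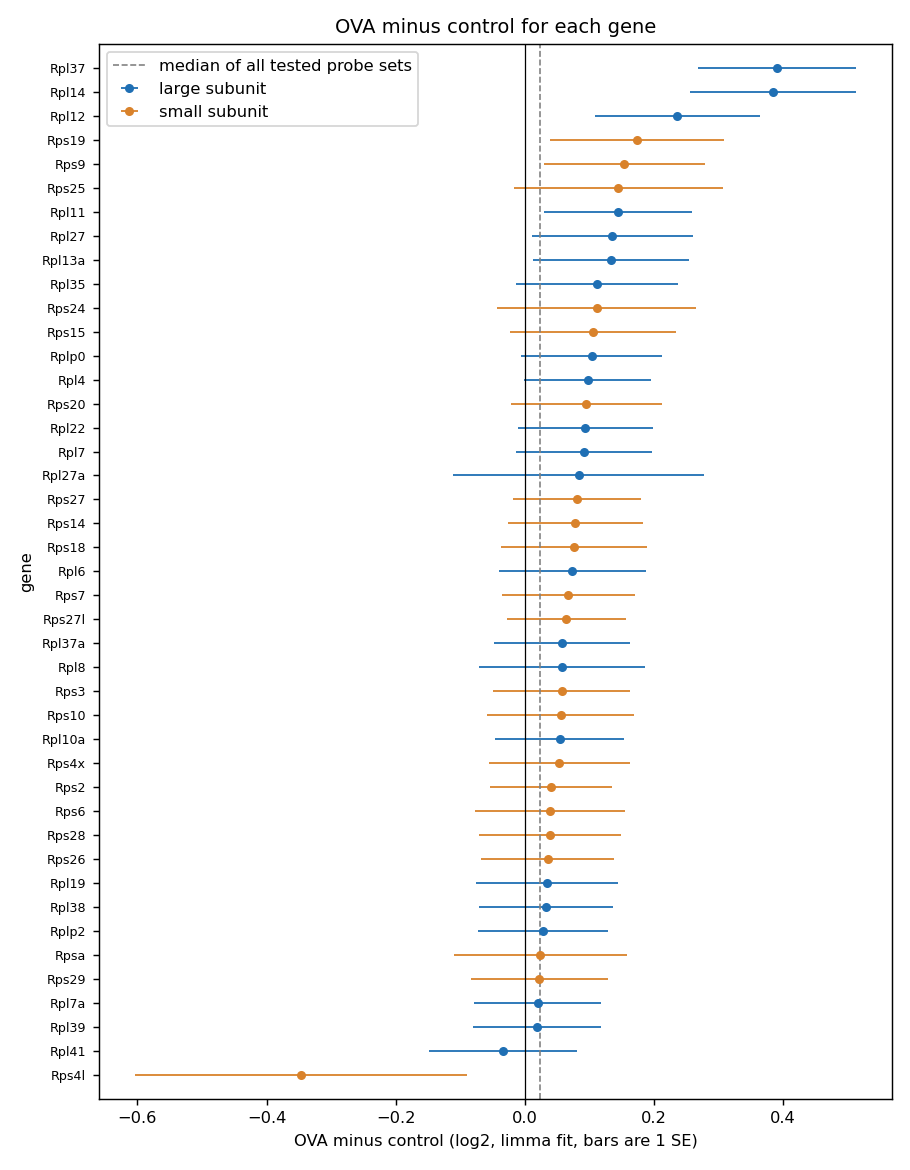
Difference OVA minus control (log2, limma fit of treatment and sex) of the 43 genes with bars of 1 SE, large subunit in blue and small subunit in orange. The dashed line is the median of all tested probe sets (0.02), 41 genes lie above 0, and the ends of the order are Rpl37 (0.39) and Rps4l (-0.35).

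Genes of both subunits had the same direction. Of the large subunit, 21 of 22 genes were higher in OVA with a median of 0.09 log2, and of the small subunit, 20 of 21 with a median of 0.06. Without female OVA 12 and male OVA 8 the medians were 0.02 for the large and -0.0023 for the small subunit. On each array the mean level of the small subunit genes was subtracted from that of the large subunit genes. A single value of this kind has no meaning for protein or mRNA balance, since probe sets differ in brightness. Its change between arrays weighs dim and bright genes alike. It was -0.23, -0.26, -0.29, -0.25, -0.25 and -0.25 log2 in OVA, against -0.29 and -0.32 in controls. The means were -0.25 ± 0.02 (SD, n = 6) in OVA and -0.30 ± 0.02 (SD, n = 2) in control, 0.05 apart, and the groups overlapped through male OVA 1. The OVA differences furthest from 0 belonged to dim genes. These were Rpl37 (0.39), Rpl14 (0.38) and Rpl12 (0.24) of the large and Rps4l (-0.35) of the small subunit. All of them widen this gap, and their part in it was not tested.

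Promoter features were set beside the differences. The median difference was 0.07 log2 over the 8 tested genes with such a start and 0.07 over the 29 tested genes without. It was 0.06 over 19 genes with CCGGAAG and 0.10 over 18 without. No test was made of these lists.

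Rps4l stood apart from the family. It is a relative of Rps4x, encoded on chromosome 6 (chr6:148354656-148355596, GRCm38.p6), and is read by a single probe set. Its intensities were 51.6, 55.8, 127, 108, 55.6 and 106 in OVA (female 2 and 12, male 1, 5, 8 and 13), against 71.8 in the female control and 119 in the male control. The arrays fell into 4 low ones, all females and male OVA 8, and 4 high ones, all male. The OVA difference was -0.35 ± 0.26 log2 (SE, adjusted p = 0.600), and the difference between females and males was -0.75 ± 0.23 (SE, limma adjusted p = 0.901). Rps4x on the X chromosome, by contrast, had intensities from 4411 to 5344 in OVA, against 4848 and 4493 in controls.

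Between the sexes the family had no direction that held across settings. Of the 43 genes, 20 were higher in females, with a median female minus male difference of -0.0035 log2. No member passed the limma test, against 0.0533% of all tested probe sets, and 1 of 86 member probe sets had an unadjusted p under 0.05, against 5.41% of all tested probe sets. After Rps4l the differences furthest from 0 were Rpl27a at -0.17 ± 0.17 log2, Rps25 at 0.16 ± 0.14 and Rpl14 at 0.15 ± 0.12. The median of the members moved to 0.04 (36 of 43 higher in females) under quantile normalization and to -0.06 (3 of 43) with array weights. It moved to -0.07 (5 of 43) without female OVA 12 and to 0.07 (38 of 43) without female OVA 2.

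The difference of the OVA effect between females and males had a median of -0.0013 log2 over the family, with 21 of 43 genes above 0, where the median over all tested probe sets was 0.05. This value rested on single arrays: it was -0.12 (4 of 43 above 0) without female OVA 12 and 0.13 (34 of 43) without female OVA 2. Under quantile normalization it was 0.05, with 33 of 43 genes above 0. No member and 0% of all tested probe sets passed, and 0 members had an unadjusted limma p under 0.05, against 8.2% of all tested probe sets. Rpl27a was at -0.53 ± 0.37 log2 (adjusted p = 0.754), Rpl37 at -0.28 ± 0.23, Rps25 at 0.36 ± 0.32 and Rpl12 at 0.36 ± 0.23. With 1 control per sex, each of these rests on a single array.

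Where a gene had several probe sets, they did not always run together. Of 19 genes with several probe sets past the filter, 5 had differences of both signs: Rps24, Rpl41, Rps18, Rpl22 and Rps28. Rps24 had 5 probe sets, 4 of them with mean intensities from 1608 to 4969 and differences from 0.11 to 0.26 log2. Its dimmest was at -0.34 ± 0.20 log2, with intensities from 9.59 to 21.7 in OVA, against 18.9 and 18.7 in controls. Of the 19 genes, the dimmest tested probe set had a higher difference than the brightest in 12 and a lower one in 7. Rpl13a was at 0.39 ± 0.19 log2 by its dimmest probe set and at 0.13 by its brightest, and Rpl27 at 0.38 ± 0.15 and 0.14. In the other direction, Rps18 was at -0.17 ± 0.14 by its dimmest tested probe set and at 0.08 by its brightest, Rpl22 at -0.06 ± 0.12 and 0.09, and Rps9 at 0.05 ± 0.12 and 0.15. Rps28 was at -0.02 by both of its dimmer probe sets and at 0.04 by its brightest.

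Beside Rpl37 and Rpl14, 4 members had an unadjusted p under 0.05. They were that probe set of Rpl27, the dimmer one of Rps7 (0.26 ± 0.11 log2) and the dimmest tested ones of Rps3 (0.30 ± 0.13) and Rpl41 (0.30 ± 0.12). The brightest probe sets of these genes were at 0.14, 0.07, 0.06 and -0.03. The probe sets of several genes that include a ribosomal protein symbol gave a like picture, with 97 of 102 higher in OVA and a median of 0.10 log2.

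Close relatives that the rule leaves out were also higher in OVA, apart from Rpl7l1 within females (-0.03 log2) and Fau without female OVA 12 and male OVA 8 (-0.0013). Rps3a1, named after its values were seen, was at 0.09 ± 0.11 log2, and Fau, a fusion of a ubiquitin-like protein with a small subunit protein, at 0.08 ± 0.11. Rpl22l1, a paralog of Rpl22, had intensities of 1109, 1364, 1169, 1092, 1560 and 1095 in OVA, against 996 and 875 in controls. Every OVA array lay above both controls, as in 7.99% of all tested genes. The limma difference of Rpl22l1 was 0.39 ± 0.16 log2 (SE, adjusted p = 0.425). Rpl7l1 was at 0.20 ± 0.13.

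Lists of the same pathway were described beside the family, and none of their genes passed the limma test. Ribosome biogenesis genes, which make and assemble rRNA, had 43 of 48 members higher in OVA and a median of 0.20 log2. Of all tested probe sets, 54.5% were higher in OVA. The list's median was 0.29 within females and 0.13 within males. Between the sexes, 46 of the 48 were higher in females, against 45.3% of all tested probe sets. This count is given for all 8 arrays only. The family's own count between the sexes moved with a single female array left out, as given above. Nop16, a nucleolar protein, had intensities from 128 to 187 in OVA, against 102 and 111 in controls, a difference of 0.59 ± 0.14 log2 (SE, limma adjusted p = 0.352). Dimt1, an rRNA methyltransferase, was at 0.44 ± 0.10, and Polr1e, a subunit of RNA polymerase I, at 0.67 ± 0.18. In these 3 genes, named for the smallest p in the list, every OVA array lay above both controls. This held for 9 of the 48 genes (18.8%), against 7.99% of all tested genes. The share was not particular to this list. Of the lists described next, it was 23.5% for translation factors (8 of 34) and 33.3% for chaperones and import factors (3 of 9). It was 21.1% for mitochondrial ribosomal proteins (16 of 76) and 0 of 11 for growth control genes.

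Translation factors had 31 of 34 members higher in OVA and a median of 0.10 log2. Eif4e, which binds the mRNA cap, had intensities from 445 to 559 in OVA, against 399 and 362 in controls, a difference of 0.44 ± 0.10 log2 (SE, limma adjusted p = 0.352). Eif3m was at 0.45 ± 0.14. Among chaperones and import factors of ribosomal proteins 8 of 9 were higher with a median of 0.16, among them Bccip at 0.26 ± 0.11 and Tsr2, which carries Rps26, at 0.26 ± 0.12. Growth control genes had 6 of 11 members higher and a median of 0.03. The median was 0.12 within females (6 of 11 higher) and -0.08 within males (1 of 11 higher), each against 1 control array. The 3 genes of the list with the lowest p were all lower in OVA, with Tsc2 at -0.27 ± 0.12, Mtor at -0.14 ± 0.09 and Eif4ebp1 at -0.13 ± 0.12.

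Mitochondrial ribosomal proteins, which form a separate ribosome, had 68 of 76 members higher in OVA and a median of 0.11 log2, with Mrpl9 at 0.32 ± 0.09, Mrpl40 at 0.31 ± 0.10 and Mrps26 at 0.30 ± 0.10. Without female OVA 12 and male OVA 8, mitochondrial ribosomal proteins had 65 of 76 members higher with a median of 0.10, ribosome biogenesis genes 40 of 48 with 0.12, and translation factors 20 of 34 with 0.03, beside 20 of 43 cytosolic ribosomal protein genes. These are counts of these arrays, and no difference between the lists was tested. The arrays left out were the highest in the cytosolic family, so the fall of its count was fixed in advance.

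**Figure D5:**
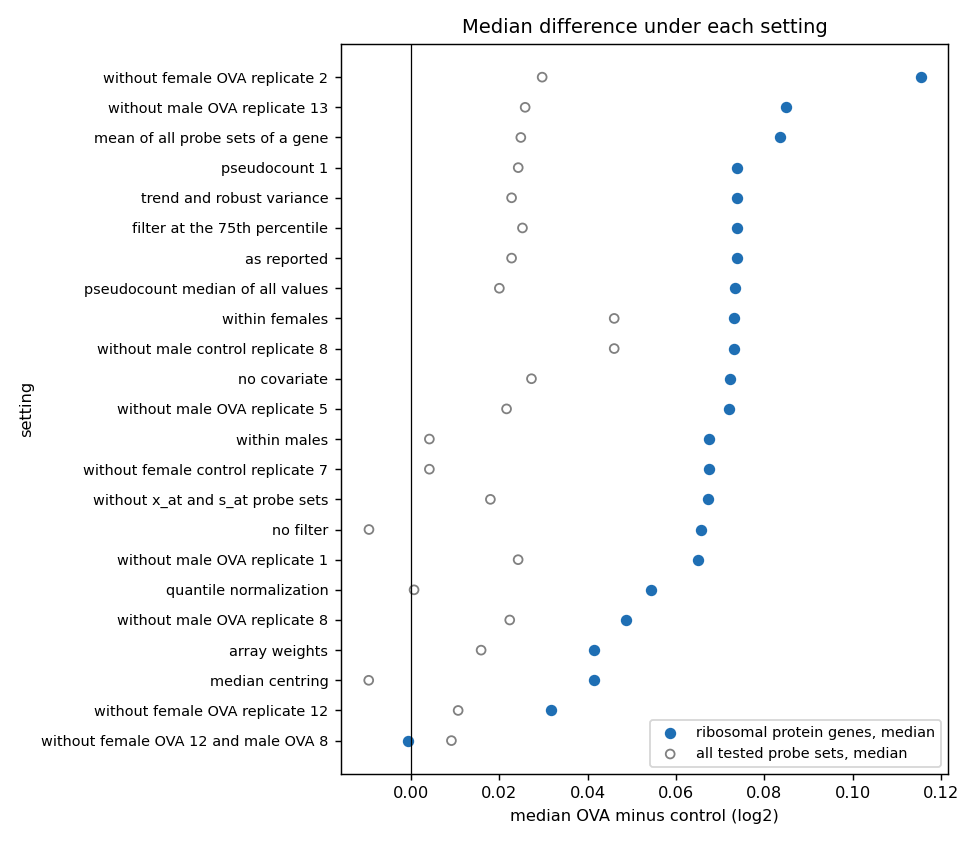
Median difference OVA minus control (log2) over the ribosomal protein genes (filled) and over all tested probe sets (open) under each setting. The family's median lies between 0.03 and 0.12 when 1 array is left out and at 0 without female OVA 12 and male OVA 8.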

How the data were processed

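Total RNA of 8 Peyer's patch samples, 1 mouse each, was read on a single-colour array with a biotin label. The deposited intensity values are on a linear scale as the authors normalized them, and MAS5 is named in the submitters' processing notes. For its version, scaling and background step, and for any scan batch, the entry is "not given in the sources used here". Equal values on 2 or more arrays occur in 51.6% of all probe sets and in 21 of the 100 members, so the summarising step was not settled from the values.

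Genes were named by the platform annotation. All 100 member identifiers were in the RefSeq gene table and 0 symbols changed. Intensities were taken to log2(value + 4.88), 4.88 being the 25th percentile of all values. After removal of 64 control probe sets, the 22518 whose mean level exceeded the median (an intensity of 11.9) were tested with limma 3.58.1 in R 4.3.3, two-sided, with Benjamini-Hochberg adjustment over all of them and a threshold of 0.05. Both main effects, of treatment and of sex, were estimated in 1 additive fit (5 residual degrees of freedom, median residual SD 0.166 log2). The difference of the OVA effect between sexes came from a fit of 4 group means, which assumes that each lone control varies like the other arrays. The fit was tested on simulated data. A gene stands for its brightest probe set that names it alone.

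The members and all gene and marker lists were chosen with earlier results of these data known. Named were the 8 genes on each side for OVA against control, 5 on each side for sex and 3 for the sex difference of the OVA effect, the 5 brightest and dimmest, the 5 of widest and 3 of narrowest range, members of role lists, genes with probe sets of opposite sign and the 3 genes of smallest p in each pathway list. List medians and array means carry no test. The alternatives are given under the processing section. Promoter sequences are from RefSeq (GRCm38.p6), and 6 genes had none in the table. Python 3.11.15 with NumPy 2.4.6, pandas 2.3.3 and matplotlib 3.10.9 was used.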

Additional observations from a re-analysis of the deposited data

Results flagged for a closer look

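Of 92 groups of 4 or 6 arrays examined for a lone sample, 2 held one, and chance gives about 1 in 20. Among the 4 male OVA arrays, the difference between the mean levels of large and small subunit genes was -0.292 log2 in male OVA 1, apart from the other 3, which lay between -0.254 and -0.246. Among the 6 OVA arrays, the log2 level of Rps6 was 6.462 in female OVA 12, apart from the others at 6.025 to 6.154. This array is also among the highest for the B cell markers. The part of cell composition in this value was not tested.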

How the results depend on the processing

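No member passed the limma test under any alternative run, for OVA against control, for the sexes or for the sex difference of the OVA effect. The alternatives were 2 pseudocounts, quantile normalization, median centring, 2 filters, array weights, a robust variance trend, 1 term in place of 2, females or males alone, only OVA arrays for the sexes, probe sets averaged by gene, no x_at and s_at probe sets and each array left out. Added after seeing the data were leaving out female OVA 12 and male OVA 8 together and counting the probe sets of several genes. No paired analysis was possible, since each mouse received 1 treatment and gave 1 array, and a shared replicate number marks no pair.

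The family's median OVA difference lay between 0.032 and 0.115 with 1 array left out, and was 0.054 under quantile normalization, 0.041 under median centring and 0.042 with array weights. The large minus small difference of medians (OVA against control) moved to 0.0453 without x_at and s_at probe sets. For the sexes, the number of all probe sets called was 4 with the filter at the 75th percentile and 5 with the mean of all probe sets, against 12, where fewer features were tested. The sex difference of the OVA effect had a family median of -0.1005 without female OVA 12 and male OVA 8, and its large minus small value was 0.0056 with array weights and -0.0315 without those arrays. The cause was not tested.

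The sign of the OVA difference turned for genes that were not called, in log2 as follows. Within males it was -0.0206 for Rps25, -0.0274 for Rpl39, -0.00157 for Rpl7a, -0.0883 for Rpsa and -0.0136 for Rps6. Within females it was 0.0318 for Rpl41, -0.00523 for Rps29, -0.0259 for Rplp2 and -0.0331 for Rpl7l1. Quantile normalization gave 0.0189 for Rpl41, -0.0102 for Rpl39, -0.00627 for Rpl7a and -0.00589 for Rpsa. Median centring gave -0.0133 for Rpl39, -0.0120 for Rpl7a, -0.00973 for Rps29, -0.0081 for Rpsa and -0.00415 for Rplp2. Array weights gave -0.00343 for Rpl7a, -0.0210 for Rps29, -0.0323 for Rpsa, -0.00997 for Rplp2, -0.00202 for Rpl38 and -0.0108 for Rps6. The mean of all probe sets gave 0.137 for Rpl41. Without x_at and s_at probe sets another probe set stands for the gene, at 0.2999 for Rpl41 and -0.336 for Rps24. Without female OVA 12 and male OVA 8 it was -0.0209 for Rpl39, -0.0345 for Rpl7a, -0.0473 for Rps29, -0.0981 for Rpsa, -0.0228 for Rplp2, -0.0272 for Rpl38, -0.00142 for Rps24, -0.0475 for Rps6 and -0.00132 for Fau, and the female minus male difference of Rpl27a was 0.0615.

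With 1 array left out, the OVA difference ran from -0.0206 to 0.344 for Rps25, -0.110 to 0.0318 for Rpl41, -0.0274 to 0.0748 for Rpl39, -0.0190 to 0.0530 for Rpl7a, -0.0230 to 0.0754 for Rps29, -0.0883 to 0.159 for Rpsa, -0.0259 to 0.0752 for Rplp2, -0.0105 to 0.0811 for Rpl38, -0.0375 to 0.104 for Rps6 and -0.0331 to 0.401 for Rpl7l1. The median of the growth control list ran from -0.0828 to 0.118. The female minus male difference ran from -0.00371 to 0.255 for Rps25 and from -0.319 to 0.0141 for Rpl27a. The sex difference of the OVA effect ran from -0.124 to 0.130 in the family's median and from -0.0250 to 0.0209 in its large minus small value.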
